A study of Homo sapiens with 24 samples.

Results

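The comparison described here was between IMR90 fibroblasts that carried a hairpin against *HMGA1* and fibroblasts that carried an empty vector, after both had been driven into RAS-induced senescence (RIS). All 6 libraries labelled RIS+shHMGA1 and all 6 labelled RIS were taken, which makes 12 of the 24 RNA-seq libraries of the series. IMR90 is a diploid strain of human lung fibroblasts. Every culture had been infected with a retrovirus for ER:HRAS(G12V), an oncogenic HRAS fused to an oestrogen receptor domain that is switched on by 4-hydroxytamoxifen (4OHT), and was at passage 23 to 28. The RIS cells also carried the MSCV vector and the RIS+shHMGA1 cells MSCV miR30 shHMGA1, and both groups had 6 days of 4OHT. The other 12 libraries (growing and shHMGA1, 6 each) had the same constructs and no 4OHT. They entered the model through the filter on low counts, the scaling of libraries and the shared estimate of spread. They also served for the comparison of the hairpin with and without 4OHT. A single hairpin stands for *HMGA1* loss in these libraries, in mixed infected populations, so that loss of *HMGA1* and any other effect of the hairpin cannot be told apart. The labels call the 6 samples of a group biological replicates and do not say from which infections they came, so that p-values measure the spread between these samples. Because the RNA was from bulk cultures, a change in the share of cells that express a gene and a change in RNA per cell cannot be told apart either.

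HMGA1 is a small, abundant non-histone protein of chromatin. It has no activation domain of its own and acts on transcription by helping other factors assemble on DNA. In senescent fibroblasts HMGA proteins are structural components of senescence-associated heterochromatic foci (SAHFs), the microscopic chromatin bodies that RAS induces in IMR90 cells. RAS-senescent fibroblasts also secrete the senescence-associated secretory phenotype (SASP), a mixture of cytokines, chemokines and proteases driven by interleukin 1 alpha, NF-kappaB and C/EBP beta, and they remodel the collagen-rich matrix that growing fibroblasts lay down. The hairpin libraries address how expression in RIS depends on HMGA1, in a study concerned with NOTCH1 signalling and SAHFs.

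Some libraries stood apart from their group. On the first principal component, which held 73.85% of the variance, the library labelled RIS replicate 2 scored -77.1 against 16.8 to 62.1 in the other 5 RIS libraries, within the range of growing cells, and it had 209 CPM (read counts scaled to library size) of *TOP2A*, a mitotic gene, against 15.8 to 27.8 in the other 5. The library labelled growing replicate 4 scored 77.3, on the RIS side. Whether the 4OHT labels of these libraries had been exchanged was not tested, and each was kept in the group of its label wherever it was used. Replicates 5 and 6 of RIS (16.8 and 22.2) and of RIS+shHMGA1 (52.5 and 58.2) lay below replicates 1, 3 and 4 of their own group. Results are therefore given as labelled and, beside that, without RIS replicate 2. Where it changes a call they are also given without RIS replicate 2 and growing replicate 4, since a growing library that departs from its group widens the spread the test uses and enters the fold changes of cells without 4OHT. Total counts of the 24 libraries ran from 8698070 to 23103424. All 12 fibroblast markers listed had at least 1 CPM in 6 or more of the 12 libraries with 4OHT, whereas 10 of 12 epithelial and 11 of 12 immune markers stayed below 1 CPM in every one, with *CDH1* and *CD3E* at 0. Summed epithelial markers came to 2.92 to 5.70 CPM in RIS and 3.47 to 8.34 CPM in RIS+shHMGA1, immune markers to 1.35 to 3.38 and 2.08 to 3.55 CPM, and endothelial markers to 41.6 to 49.2 and 32.2 to 45 CPM outside RIS replicate 2, which had 104 CPM.

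*HMGA1* (chromosome 6, 34204650 to 34214008, plus strand, GRCh37) was lower in every RIS+shHMGA1 library than in any RIS library. The RIS libraries held 742, 713, 641, 754, 786 and 704 CPM of *HMGA1* in replicates 1 to 6, and the RIS+shHMGA1 libraries 262, 236, 217, 197, 59.98 and 75.1 CPM. RIS replicate 2, which stood apart in its overall profile, did not stand apart for *HMGA1*. The means were 723 ± 50.1 (SD, n = 6) and 174 ± 85.6 CPM (SD, n = 6), an exact two-sided permutation test of the difference gave p = 0.00216, the smallest its 924 splits allow, and edgeR's quasi-likelihood test gave a log2 fold change of -2.05 (SE 0.30, adjusted p = 0.000648 by Benjamini-Hochberg). The transcript that was left fell into separate ranges. Replicates 1 to 4 kept 27.2% to 36.2% of the RIS mean, and replicates 5 and 6 kept 8.29% and 10.4%. Fitted on replicates 1, 3 and 4 of each group (with RIS+shHMGA1 replicate 2) the log2 fold change was -1.67, and on replicates 5 and 6 it was -3.44. The construct itself could be seen as well. *MIR30A*, a microRNA gene whose precursor gives the miR30 vector its name, had 0 counts in all 12 libraries with empty vector and 1.02 to 2.78 CPM in the 6 RIS+shHMGA1 libraries (median 2.11), with 1.77 to 2.72 CPM in the 6 shHMGA1 libraries. Every library, RIS replicate 2 included, thus fell on the side of its construct label by this gene, which was chosen after its values had been seen.

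*HMGA2*, the paralogue that also enters SAHFs, did not pass the test. Its level was 661, 731, 680, 609, 955 and 1116 CPM in the RIS libraries and 573, 649, 521, 580.3, 781 and 790.0 CPM with the hairpin, so that the groups overlapped and replicates 5 and 6 were the highest of both. The log2 fold change was -0.29 (SE 0.16, adjusted p = 0.146 in the edgeR fit; exact permutation p = 0.173), and without RIS replicate 2 it was -0.31 (SE 0.17, adjusted p = 0.169 in edgeR). Among 10 high mobility group genes tested, *HMGA1* was the 1 that fell and *HMGN3*, a nucleosome-binding member of the HMGN branch, the 1 that rose, from 13.2 to 27.9 CPM in RIS to 37.6 to 75.5 CPM (log2 fold change 1.27, SE 0.22, adjusted p = 0.00189 in edgeR, and 1.25 without RIS replicate 2). In fits with offsets for transcript length and GC content, described below, 0 of the 10 genes were called higher. The highest value among them was then 0.39 as labelled and 0.52 without RIS replicate 2. The antisense neighbour of *HMGN3*, HMGN3-AS1, was also called as labelled and without RIS replicate 2. The study's counting is not stated to use strand, so that reads of the pair may not be separable.

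**Figure D1:**
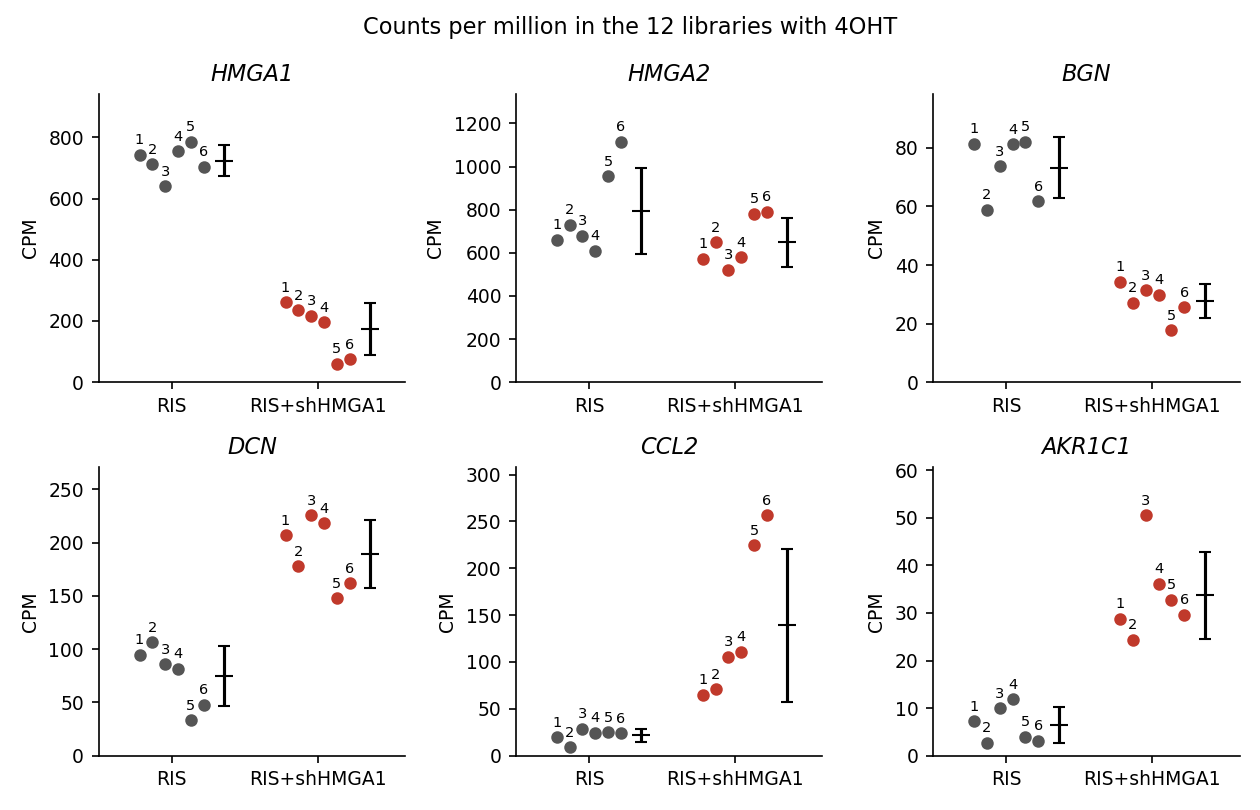
CPM (linear axes from 0) of 6 genes in the 6 RIS (grey) and 6 RIS+shHMGA1 (red) libraries; numbers beside points are replicate numbers, and the bar at the right of each group is the mean ± SD (n = 6). *HMGA1* and *BGN* were lower and *DCN*, *CCL2* and *AKR1C1* higher in all 6 RIS+shHMGA1 libraries than in all 6 RIS libraries, whereas the *HMGA2* levels overlapped.

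Across all genes, 341 of 13356 tested passed an adjusted p below 0.01 and an absolute log2 fold change above 0.58 as labelled (2.55%), of which 236 were higher (1.77%) and 105 lower (0.786%) with the hairpin. Without RIS replicate 2, 141 genes passed (1.05%), 99 higher (0.737%) and 42 lower (0.313%). Of these, 122 had been called as labelled, all in the same direction, which is 35.8% of the first list and 86.5% of the second. Without RIS replicate 2 and growing replicate 4 the count was 1677 (12.5%), with 1342 higher (10%) and 335 lower (2.5%), and it included 317 of the 341. With the replicate number as a block and without RIS replicate 2 it was 531 (3.95%). Genes whose 6 RIS+shHMGA1 libraries all lay above all 6 RIS libraries numbered 1068 (8%), and 698 lay entirely below (5.23%). Leaving out replicates 5 and 6 of every group left 15 calls, in a fit that kept RIS replicate 2 and growing replicate 4. The libraries with 4OHT numbered 1 to 4 alone, without RIS replicate 2, gave 1664 (13.1%) and those numbered 5 and 6 alone 1222 (9.5%). "Rose" and "fell" are used below for genes that passed both as labelled and without RIS replicate 2. For the rest, the fit in which they passed is named. Counts of called list members below are to be read against the shares of all genes given here.

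**Figure D2:**
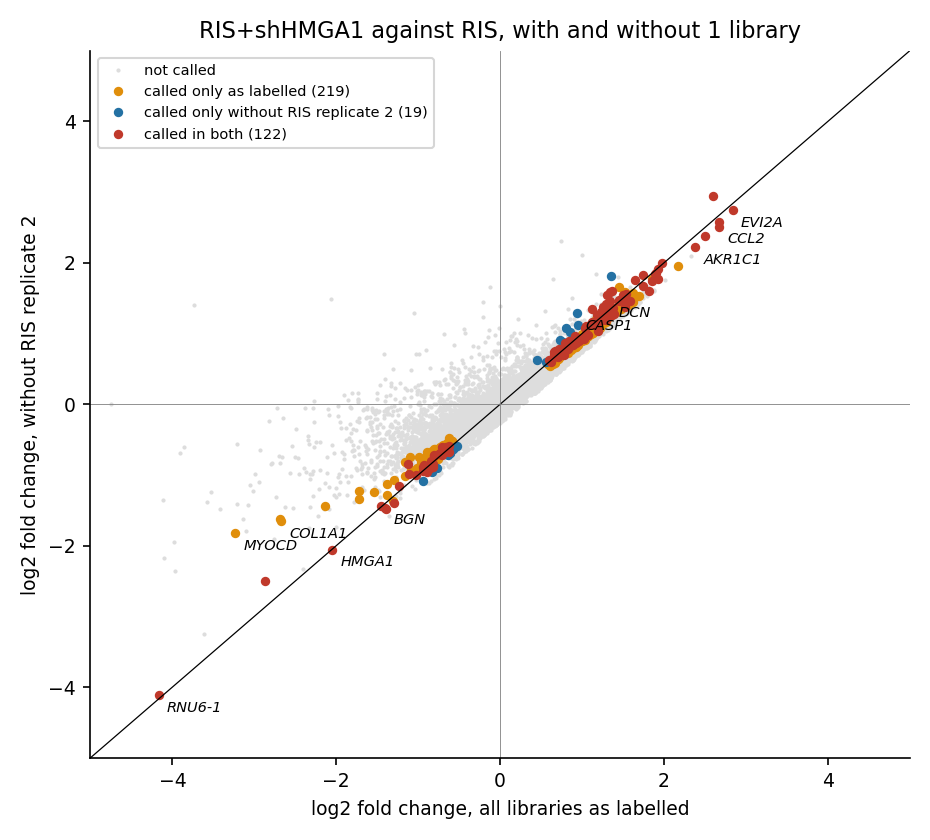
Log2 fold change of RIS+shHMGA1 against RIS with all libraries as labelled (horizontal axis) and without RIS replicate 2 (vertical axis), 1 point a gene, with the diagonal of equal values. The 122 genes called in both fits (red) lie on the diagonal, and lower genes called only as labelled (orange, such as *COL1A1* and *MYOCD*) lie above it, with smaller decreases once that library is left out.

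Decreases were ranked among genes with a mean log2 CPM of 2 or more that were called in both fits. *BGN* (X chromosome, 152760438 to 152775004), which encodes biglycan, a small leucine-rich proteoglycan of the collagen matrix, was at 59.0 to 82.2 CPM in RIS (median 77.5) and 17.7 to 34.3 CPM with the hairpin (median 28.5). The ranges did not meet, and its log2 fold change was -1.40 (SE 0.22, adjusted p = 0.00106) as labelled and -1.46 (SE 0.23, adjusted p = 0.00132) without RIS replicate 2, both by edgeR. *ENPP1*, the ectoenzyme that makes pyrophosphate and hydrolyses cGAMP, fell from 15.6 to 46.0 CPM (median 18.4) to 8.6 to 13.7 CPM (median 10.1), a log2 fold change of -1.29 (SE 0.26, adjusted p = 0.00493 in edgeR). Its high RIS values were replicates 5 and 6, and the decrease was -0.88 in the fit of the lower-numbered replicates and -1.75 in replicates 5 and 6. *CACNA2D1*, an auxiliary subunit of voltage-gated calcium channels, fell from a median of 39.5 to 16.8 CPM without overlap (log2 fold change -1.23, SE 0.21, adjusted p = 0.00189 in edgeR).

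The other decreases of that size were *SHROOM2*, an actin-binding protein, and *NPTXR*, a neuronal pentraxin receptor, with log2 fold changes of -1.45 and -1.39. *MAP3K6* (-1.12), *APCDD1L* (-1.11), *APLP1* (-1.03), the stathmin gene *STMN3* (-0.94) and *LRRC15* (-0.94), a membrane protein of activated fibroblasts, followed. Apart from *SHROOM2*, for which RIS replicate 3 was at 1.92 CPM against 4.47 to 5.80 CPM in the other RIS libraries, none of them overlapped between the 6 and 6 libraries. The largest negative value belonged to *RNU6-1*, a U6 small nuclear RNA gene, at 15.3 to 23.5 CPM in RIS and 0.347 to 1.51 CPM in RIS+shHMGA1 (log2 fold change -4.17, SE 0.24, adjusted p = 6.91e-11 in edgeR). U6 has many near-identical copies and its RNA is not polyadenylated, so that what these reads stand for in poly(A) libraries is uncertain. The same difference was measured without 4OHT (-3.83).

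The largest increase at this level of expression was that of *EVI2A* (chromosome 17, 29643428 to 29648767), which encodes a transmembrane protein and lies on the minus strand within the span of *NF1*, a gene of the plus strand. RIS libraries held 0.730 to 2.57 CPM (median 1.18) and RIS+shHMGA1 libraries 7.32 to 12.4 CPM (median 11), a log2 fold change of 2.84 (SE 0.39, adjusted p = 0.000287 in edgeR). *CCL2* (chromosome 17, 32582293 to 32584227), the monocyte-attracting chemokine MCP-1, rose from 9.25 to 28.9 CPM (median 24.3) to 65.2 to 257 CPM (median 108). Its log2 fold change was 2.67 (SE 0.36, adjusted p = 0.000287) as labelled and 2.51 (SE 0.36, adjusted p = 0.000715) without RIS replicate 2 in edgeR. Hairpin replicates 5 and 6 had the highest *CCL2*, with a change of 3.32 on the log2 scale against 1.83 in the other replicates. Those replicates had the least *HMGA1* left and also differed from the others in overall profile. The part of each in the *CCL2* level cannot be told apart. *DCN* (chromosome 12, 91534261 to 91576994), decorin, the closest relative of biglycan, moved the opposite way to it. It was at 33.2 to 107 CPM in RIS (median 83.8) and 148 to 226 CPM in RIS+shHMGA1 (median 192), with a log2 fold change of 1.34 (SE 0.25, adjusted p = 0.00333) as labelled and 1.47 (SE 0.26, adjusted p = 0.00374) without RIS replicate 2 in edgeR.

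*AKR1C1*, an aldo-keto reductase that reduces steroids and reactive carbonyls, rose from 2.72 to 11.9 CPM to 24.4 to 50.6 CPM (log2 fold change 2.38, SE 0.41, adjusted p = 0.00200 in edgeR). Its neighbour *AKR1C2* rose from 0.254 to 1.12 CPM to 2.18 to 5.70 CPM (2.68, SE 0.31, adjusted p = 5.42e-05 in edgeR). The coding sequences of these genes are nearly identical, so that the split between them is uncertain. Only reads above a mapping quality limit were kept, so that reads matching both genes may be missing. No other member of the 14 tested NRF2 target and AKR1C genes was called in either fit, and the median of that list was 0.27, beside -0.06 over all genes. *RGS2*, which inhibits Gq signalling, rose by 1.37 on the log2 scale, *NMB*, a bombesin-like peptide, by 1.35, and *ITGB3BP*, a centromere protein, by 1.34. For *ITGB3BP* the groups overlapped, with RIS replicate 2 at 7.62 CPM and RIS+shHMGA1 replicate 5 at 6.42 CPM. Also among the 12 largest were *JPX*, *C1orf54*, *IMMP1L* and *SNHG33* (1.35 to 1.53). *RPSAP52* (1.54) lies opposite *HMGA2* on chromosome 12 and overlaps its start, and it is a pseudogene of *RPSA*, which makes its reads uncertain on both grounds.

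**Figure D3:**
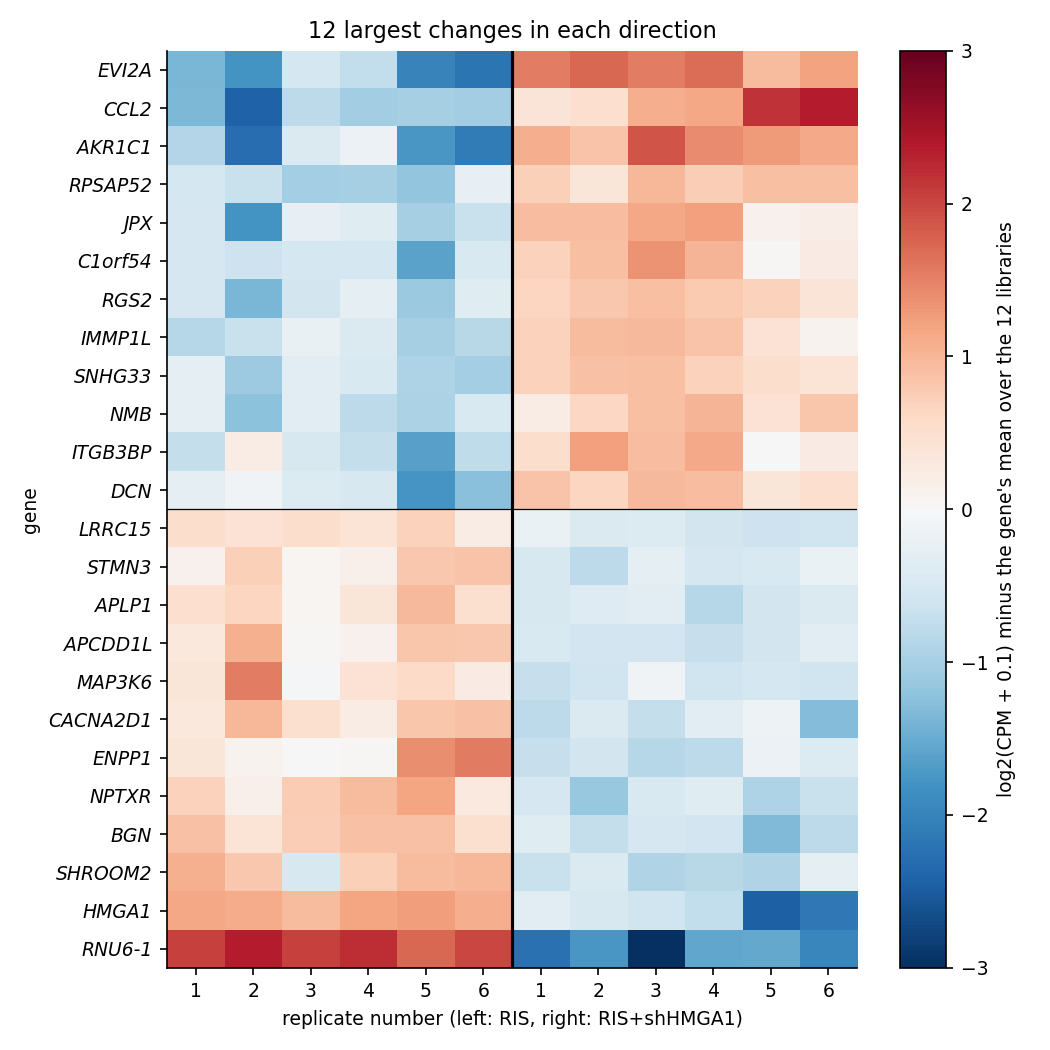
Heat map of the 12 largest increases (top) and 12 largest decreases (bottom) among genes called in both fits. Colour is log2(CPM + 0.1) minus the gene's mean over the 12 libraries, columns are RIS replicates 1 to 6 and RIS+shHMGA1 replicates 1 to 6, and the vertical line parts the groups. Most rows change colour at the line in every library. Exceptions are RIS replicate 3 in *SHROOM2* and RIS replicate 2 in *ITGB3BP*. *CCL2* is highest and *HMGA1* lowest in RIS+shHMGA1 replicates 5 and 6.

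The fold changes followed transcript length, and this bears on the genes above as well as on every gene group below. Without RIS replicate 2, the 661 tested protein-coding genes with a canonical transcript of up to 1000 bases had a median log2 fold change of 0.66, and the 2297 genes with one of over 6000 bases a median of -0.29. As labelled these medians were 0.75 and -0.39, and across 11994 genes the correlation of log2 fold change with log2 length was -0.45, given as a description since genes share libraries. Called higher genes had a median transcript of 2115 bases and called lower genes one of 4814, against 3413 for all. The shift was present in single libraries. The median log2 deviation of short genes minus that of long genes was 0.322, -1.18, 0.327, 0.494, -0.704 and -0.222 in RIS replicates 1 to 6, and 1.12, 1.03, 1.35, 1.15, 0.303 and 0.936 in RIS+shHMGA1. Within replicates 1, 3 and 4 and within replicates 5 and 6, the hairpin libraries were all above the RIS libraries. GC content moved in the same way to a lesser degree (correlation -0.26). A fit with offsets for transcript length and GC content in each library, chosen after these values had been seen and called the length-adjusted fit here, called 206 genes as labelled (110 higher and 96 lower, 1.63% of 12636) and 122 without RIS replicate 2 (70 higher and 52 lower, 0.960% of 12704). Such an offset also takes out any real change that short or long genes have in common. Its calls included 109 of the 341 called as labelled, or 72 without RIS replicate 2. In all, 40 genes were called in 4 fits, as labelled and without RIS replicate 2, each with and without the offsets, 30 higher and 10 lower. They include *HMGA1*, *BGN*, *ENPP1*, *CACNA2D1*, *APLP1* and *STMN3* among the lower and *EVI2A*, *CCL2*, *AKR1C1*, *AKR1C2*, *DCN*, *RGS2* and *NMB* among the higher genes.

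Most genes of the inflammatory SASP had more RNA with the hairpin, but few of them passed the test. Of 21 cytokine and chemokine genes tested, 20 had a positive log2 fold change as labelled and 19 without RIS replicate 2, with medians of 1.05 and 0.85. Called members numbered 2 as labelled (*CCL2* and *TNFAIP6*), 1 without RIS replicate 2 (*CCL2*), and 8 without RIS replicate 2 and growing replicate 4. In these fits 1.77%, 0.737% and 10% of all genes were called higher. In 8 of the 21, all 6 RIS+shHMGA1 libraries lay above all 6 RIS libraries, where 8% of all genes did so. These are mostly short transcripts (median 1504 bases), and in the length-adjusted fit without RIS replicate 2 their median was 0.27, with 16 positive, 5 negative and *CCL2* called.

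*CXCL8*, interleukin 8 and a neutrophil attractant, was among the most abundant transcripts. Outside RIS replicate 2 the RIS libraries held 11196 to 34386 CPM of it (median 26732), RIS replicate 2 held 1474 CPM, and RIS+shHMGA1 libraries held 38650.1 to 82448 CPM (median 69269). All 6 hairpin libraries were above all 6 RIS libraries, and yet the log2 fold change of 1.57 (SE 0.71, adjusted p = 0.0828 in edgeR) did not pass as labelled. It was 1.32 without RIS replicate 2 with or without growing replicate 4, at SE 0.67 (adjusted p = 0.146) with that growing library and SE 0.35 (adjusted p = 0.00595) without it in edgeR. *IL6*, the cytokine most used as a SASP readout, had 288 CPM in RIS replicate 2, 1564 to 2718 CPM in the other RIS libraries and 3413 to 4928 CPM in RIS+shHMGA1. Its log2 fold change was 1.13 (adjusted p = 0.0715) as labelled and 0.91 (adjusted p = 0.138) without RIS replicate 2 in edgeR, and it passed once growing replicate 4 was also left out (adjusted p = 0.00435 in edgeR).

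*TNFAIP6*, which encodes the hyaluronan-binding TSG-6, was at 0.635 CPM in RIS replicate 2, 2.28 to 5.13 CPM in the other RIS libraries and 9.53 to 19.2 CPM with the hairpin. It was called as labelled (log2 fold change 2.18, adjusted p = 0.00692 in edgeR) and missed the threshold without RIS replicate 2 (1.96, adjusted p = 0.0113 in edgeR), which it passed there with the replicate number as a block (2.08, adjusted p = 0.00374 in edgeR). The neutrophil chemokines *CXCL3* and *CXCL2*, *IL24*, a cytokine of the IL-10 family, and *TNFRSF11B*, osteoprotegerin, were called only without RIS replicate 2 and growing replicate 4, at log2 fold changes of 1.45, 0.80, 1.23 and 0.85. For *CXCL3*, *CXCL2* and *IL24* the 6 hairpin libraries were all above the 6 RIS libraries, whereas *TNFRSF11B* overlapped.

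Upstream of these genes few passed the test. Of 9 interleukin 1 and inflammasome genes, 7 were positive as labelled and 7 without RIS replicate 2, with medians of 0.39 and 0.33. In the length-adjusted fit without RIS replicate 2, 6 were positive, with a median of 0.25. *CASP4* was higher in every hairpin library (299 to 503 CPM against 112 to 293 CPM) but was called in neither of the first fits. *IL1A*, the membrane-bound cytokine that starts the SASP cascade, was at 24.9 CPM in RIS replicate 2, 407 to 553 CPM in the other RIS libraries and 489.9 to 740.3 CPM with the hairpin, with a log2 fold change of 0.50 (SE 0.67, adjusted p = 0.559) as labelled and 0.25 (adjusted p = 0.777) without RIS replicate 2 in edgeR. *IL1B* had 0.62 and 0.37, with overlapping ranges. Among 9 genes of the interleukin 1 and inflammasome axis, *CASP1*, the protease that matures IL-1 beta, was called without RIS replicate 2 (log2 fold change 1.29, SE 0.22, adjusted p = 0.00374 in edgeR), where 7.02 to 12.3 CPM in the other 5 RIS libraries compare with 19.7 to 27.0 CPM with the hairpin. With RIS replicate 2, at 25.5 CPM, it did not pass (0.93, adjusted p = 0.0179 in edgeR). *IL1RAP*, the shared receptor accessory protein, was called lower as labelled (-0.84, adjusted p = 0.00923 in edgeR) and not without RIS replicate 2 (-0.82, adjusted p = 0.0198 in edgeR). *CEBPB*, which encodes C/EBP beta, had a log2 fold change of 0.28 and was not called.

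None of 15 NF-kappaB subunits and feedback genes, of 15 ERK feedback genes or of 13 C/EBP and AP-1 factors was called as labelled or without RIS replicate 2. The medians were -0.24, -0.12 and 0.11 as labelled, and *DDIT3*, the stress-induced CHOP, was the member called without RIS replicate 2 and growing replicate 4 (log2 fold change 0.93). *HRAS* itself, which the counts cannot split into endogenous and introduced RNA, had a log2 fold change of -0.26 (adjusted p = 0.136 in edgeR). The 15 matrix metalloproteinases and their TIMP inhibitors held 0 calls in these fits and a median of -0.04. *MMP1*, the interstitial collagenase, overlapped between groups (4728 to 64219 CPM and 51978 to 105097 CPM, log2 fold change 1.06, adjusted p = 0.218 in edgeR).

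*SERPINB2*, an inhibitor of plasminogen activators, was at 432 CPM in RIS replicate 2, 6469 to 12093 CPM in the other RIS libraries and 15208 to 20855 CPM with the hairpin. The ranges did not meet. Its log2 fold change of 1.16 (adjusted p = 0.215 in edgeR) did not pass as labelled, and it passed without RIS replicate 2 and growing replicate 4, at 0.91 (adjusted p = 0.00403 in edgeR). *PLA2G4A*, the phospholipase that frees arachidonic acid for prostaglandin synthesis, behaved likewise (9.16 to 63.4 CPM and 76.4 to 159 CPM, log2 fold change 1.56, adjusted p = 0.0225 in edgeR). It was the 1 of 9 prostaglandin genes called when both libraries were left out, where 10% of all genes were called higher.

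Of the 47 gene lists, the collagens had the lowest median both as labelled and without RIS replicate 2. All 20 fibrillar and basement membrane collagens tested had a negative log2 fold change as labelled, with a median of -1.50, and 19 of 20 without RIS replicate 2, with a median of -0.81. The calls were 1 as labelled, 0 without RIS replicate 2 and 5 without growing replicate 4 as well. In these fits 0.786%, 0.313% and 2.5% of all genes were called lower. Part of the size of the decreases came from RIS replicate 2. *COL1A1*, the major chain of type I collagen, was at 13208 CPM in that library, 881 to 3511 CPM in the other RIS libraries and 428 to 789 CPM with the hairpin. All 6 hairpin libraries were below all RIS libraries, and the log2 fold change was -2.67 (SE 0.63, adjusted p = 0.00972) as labelled, -1.66 (SE 0.49, adjusted p = 0.0345) without RIS replicate 2, and -1.66 (SE 0.31, adjusted p = 0.000997) without growing replicate 4 too, all by edgeR. Its partner *COL1A2* overlapped between groups (-2.19 as labelled, -0.93 without RIS replicate 2).

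The collagen values also varied with replicate number and transcript length. In replicates 5 and 6 alone, 14 of 18 tested collagens were called lower (2.44% of all genes) with a median of -1.13, and in the lower-numbered replicates without RIS replicate 2, 3 of 17 (1.78% of all genes) with a median of -0.33. These fits use the spread inside each set of replicates, and a difference between the sets was not tested. The transcripts are long (median 6060 bases), and the length-adjusted median without RIS replicate 2 was -0.38, with 19 of 20 still negative and 0 called, beside -0.03 over all genes in that fit.

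Proteoglycans changed in both directions. Of 18 tested, *BGN* fell and *DCN* and *SDC2* rose, and these 3 were also called in the length-adjusted fits. *SDC2*, the heparan sulphate carrier syndecan 2, was at 49.5 to 103 CPM in RIS (median 86.3) and 119 to 186 CPM in RIS+shHMGA1 (median 165) without overlap, a log2 fold change of 0.92 (SE 0.17, adjusted p = 0.00298) as labelled and 0.90 (SE 0.18, adjusted p = 0.0067) without RIS replicate 2 in edgeR. *VCAN*, the large hyaluronan-binding proteoglycan versican, was lower in every hairpin library (13.1 to 22 CPM against 25.6 to 361 CPM). It was called as labelled (-2.69, adjusted p = 0.00899 in edgeR) but not without RIS replicate 2 (-1.62, adjusted p = 0.0314 in edgeR), the library that held the 361 CPM. *HSPG2*, perlecan of basement membranes, had values of -2.21 and -1.19, and *LUM*, lumican, a relative of decorin, 0.92 and 1.17. Both were called only without RIS replicate 2 and growing replicate 4.

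Elastic fibre and matricellular genes, contractile genes and integrins had mostly negative values. Among 27 elastic and matricellular genes, 25 were negative as labelled (median -0.99) and 24 without RIS replicate 2 (median -0.53), with 1, 0 and 8 called lower as labelled, without RIS replicate 2, and without growing replicate 4 as well. In these fits 0.786%, 0.313% and 2.5% of all genes were called lower. In the length-adjusted fit without RIS replicate 2, 22 were negative (median -0.41). After length adjustment, 0 of these genes were called in each of the fits above. *LTBP2*, a latent TGF-beta binding protein, was the call as labelled (178 to 317 CPM against 107 to 136 CPM, -0.80, adjusted p = 0.00899 in edgeR). *FN1*, fibronectin, overlapped (1209.8 to 5414 CPM and 786 to 1599 CPM), at -1.50 as labelled and -1.22 without RIS replicate 2. *THBS2*, thrombospondin 2, did not overlap (17.2 to 38.8 CPM and 9.82 to 12.7 CPM) and had -1.22 and -1.25.

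All 19 contractile and myocardin target genes were negative as labelled and without RIS replicate 2, with medians of -0.79 and -0.38. In the length-adjusted fit without RIS replicate 2, 12 were negative and 7 positive, with a median of -0.35. After length adjustment, 0 of these genes were called as labelled or without RIS replicate 2. Without growing replicate 4 as well, 3 were called lower after length adjustment. *MYOCD*, myocardin, the coactivator of smooth muscle genes, was at 21.6 CPM in RIS replicate 2, 1.37 to 2.92 CPM in the other RIS libraries and 0.381 to 0.787 CPM with the hairpin, and *MRTFB*, a coactivator of the same family, at 7.96 to 13.7 CPM and 4.76 to 6.62 CPM. These were called as labelled (-3.23, adjusted p = 0.00986, and -0.79, adjusted p = 0.00479, in edgeR) and missed the threshold without RIS replicate 2 (-1.82, adjusted p = 0.0425, and -0.68, adjusted p = 0.0123, in edgeR). *ACTB*, beta-actin, had -0.38 and was not called. All 14 integrins were negative as labelled and without RIS replicate 2, with medians of -0.75 and -0.52. In the length-adjusted fit without RIS replicate 2, 13 were negative, with a median of -0.31. *ITGA5*, the fibronectin receptor chain, was called as labelled (511 to 903 CPM against 324 to 433 CPM, -0.78, adjusted p = 0.00942 in edgeR), and *ITGB1*, its beta chain, was called only after length adjustment (-0.71 without RIS replicate 2, adjusted p = 0.000687 in edgeR).

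Growth factor pathways held few calls, beside 2.55% of all genes called as labelled. In the TGF-beta and BMP list *TGFBI*, a secreted TGF-beta target, was lower in every hairpin library (1306 to 1839 CPM against 2056 to 4353 CPM) and was the 1 of 25 called as labelled (-0.87, adjusted p = 0.00986 in edgeR; -0.70, adjusted p = 0.0266, without RIS replicate 2). *PDGFRB*, the receptor of PDGF-B on mesenchymal cells, and *IGFBP5*, an IGF-binding protein, did not overlap between groups and were called only without RIS replicate 2 and growing replicate 4, at -0.99 and -0.91. No member of 8 IGF axis, 19 fibroblast and vascular growth factor, 8 EGFR or 11 Wnt genes was called as labelled or without RIS replicate 2. Their medians as labelled were -0.46, -0.09, -0.48 and -0.64.

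**Figure D4:**
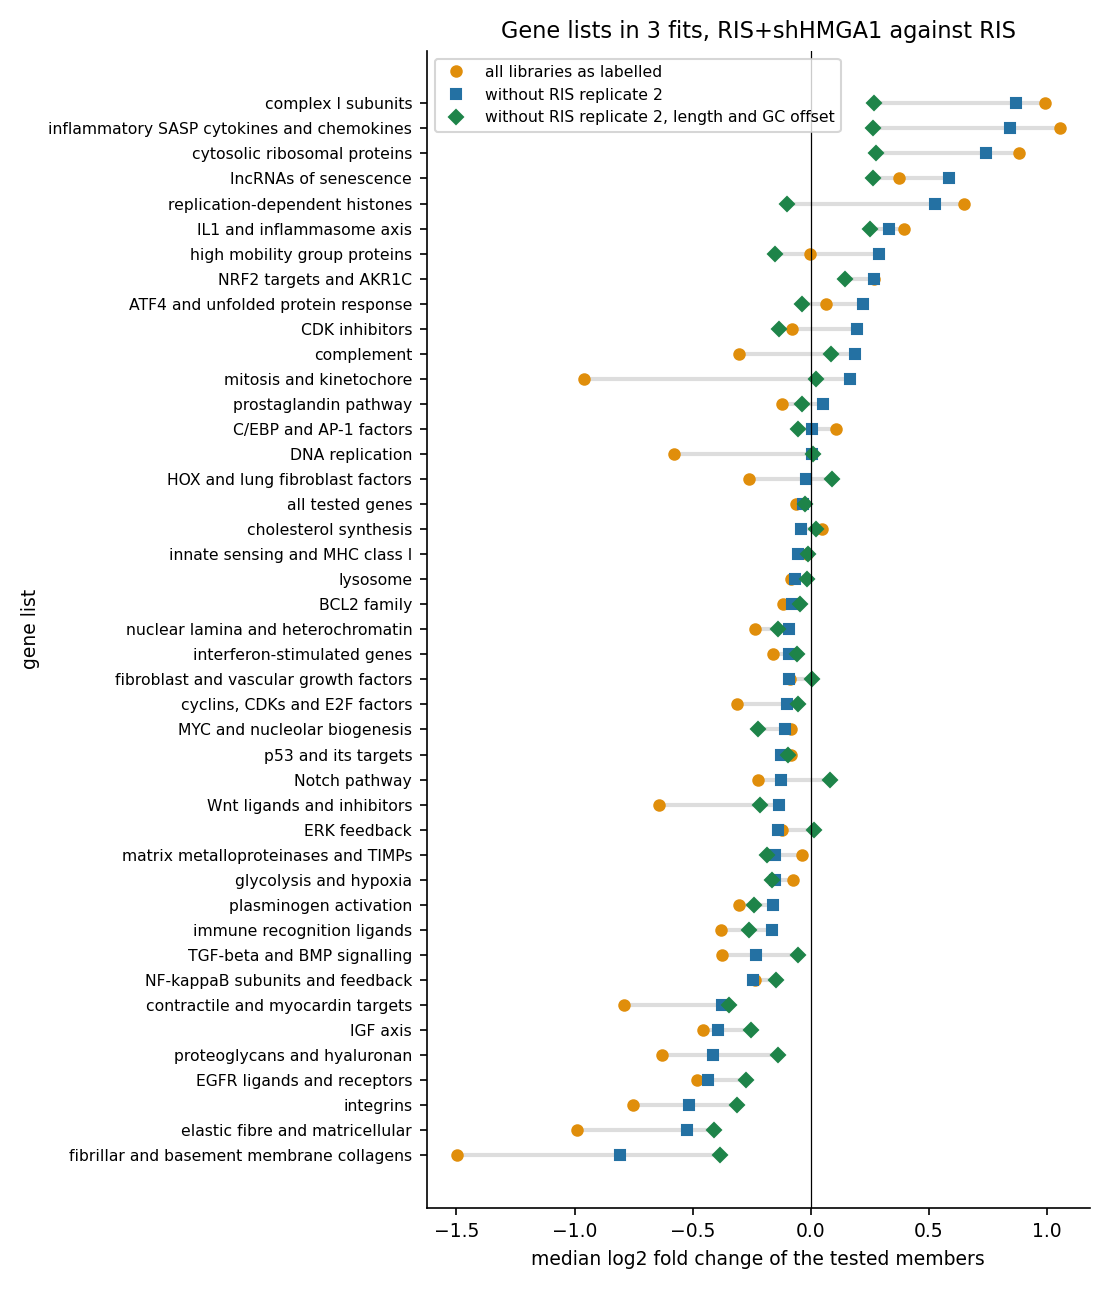
Median log2 fold change of RIS+shHMGA1 against RIS for the gene lists other than cell type markers as labelled, without RIS replicate 2 and in the length-adjusted fit without that library; the vertical line is at 0. Collagens run from -1.50 to -0.81 and -0.38, and complex I subunits from 0.99 to 0.87 and 0.27, in these 3 fits.

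Ribosomal protein and respiratory chain genes, most of them short, had mostly positive values. All 21 cytosolic ribosomal protein genes tested were positive, with medians of 0.88 as labelled and 0.74 without RIS replicate 2, and 14 of 16 subunits of complex I, the first enzyme of the respiratory chain, had the same sign, with medians of 0.99 and 0.87. None was called in either fit, and 14 ribosomal and 12 complex I genes were called without RIS replicate 2 and growing replicate 4, where 10% of all genes were called higher. With the replicate number as a block and without RIS replicate 2, 3 complex I genes were called. *RPS6*, a protein of the small ribosomal subunit, was at 589 to 2157 CPM in RIS and 2211 to 4489 CPM in RIS+shHMGA1, and *NDUFB3*, a complex I subunit, at 30.7 to 76.9 CPM and 97.4 to 211 CPM. The median transcripts of these lists are 1174 and 919.5 bases long. After length adjustment without RIS replicate 2 the medians were 0.28 and 0.27, with 0 calls. Whether the RNA of these genes changed or the recovery of short transcripts differed between libraries was not tested.

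Replication-dependent histone genes, whose normal transcripts lack poly(A) tails and peak in S phase, had a median of 0.65 as labelled, 0.52 without RIS replicate 2 and -0.10 after length adjustment of the latter, with 0 of 11 called in these fits. *H1-2*, a linker histone, was higher in every hairpin library (42.4 to 71.2 CPM against 14.3 to 31.3 CPM). Among 7 long non-coding RNAs of senescence, *MIR22HG*, the host of miR-22, was at 30.7 to 43.2 CPM in RIS and 46.7 to 64.0 CPM with the hairpin. Its log2 fold change of 0.56 (adjusted p = 0.00331 in edgeR) was just under the size threshold as labelled, and it passed without RIS replicate 2 (0.59, adjusted p = 0.0046 in edgeR) and after length adjustment of that fit. *GAS5*, a growth arrest transcript that hosts small nucleolar RNAs, was at 34.6 to 175 CPM and 213 to 546 CPM (1.62, adjusted p = 0.0171 in edgeR) and was called neither as labelled nor without RIS replicate 2, but was called without growing replicate 4 as well (1.43, adjusted p = 0.00105 in edgeR).

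Proliferation genes showed how far RIS replicate 2 set the direction of a group. Of 20 mitosis and kinetochore genes, 19 were negative as labelled, with a median of -0.96, and 13 were positive without that library, with a median of 0.17. *TOP2A*, a topoisomerase of dividing cells, was at 15.8 to 27.8 CPM in the other 5 RIS libraries and 14.9 to 25.7 CPM with the hairpin, and its log2 fold change went from -1.38 (adjusted p = 0.0589 in edgeR) to -0.08. The proliferation marker *MKI67*, named here for that role, went from -2.66 (adjusted p = 0.0233 in edgeR) to -0.20, at 3.16 to 6.85 CPM in those 5 libraries and 3.37 to 5.52 CPM with the hairpin. The spindle factor *TPX2* went from -1.64 to -0.19. None of the 20 was called in either fit. The 20 DNA replication genes likewise had medians of -0.58 and 0.01, and 20 cyclins, CDKs and E2F factors -0.31 and -0.10, with 0 calls in either fit.

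A few cell cycle genes had more RNA with the hairpin once RIS replicate 2 was set aside. *PCNA*, the replication clamp, was at 55.5 to 88.5 CPM in RIS and 106 to 141 CPM with the hairpin, and *CDK1*, the mitotic kinase, at 4.99 to 10.03 CPM in the 5 libraries and 10.02 to 23 CPM with the hairpin. They were called only without RIS replicate 2 and growing replicate 4, at 0.74 and 1.00. After length adjustment of that fit, 0 genes of the DNA replication list or of the cyclin, CDK and E2F list were called. *MAD2L1*, a spindle checkpoint protein outside the lists and chosen after its values were seen, rose without overlap (7.61 to 22.4 CPM and 28.6 to 47.0 CPM, log2 fold change 1.25, SE 0.24, adjusted p = 0.00442 in edgeR, and 1.37 without RIS replicate 2). The 8 CDK inhibitors had 0 calls as labelled or without RIS replicate 2, and *CDKN2A* and *CDKN3* were called higher once growing replicate 4 was also left out, at 0.83 and 1.77. After length adjustment of that last fit, 0 of the 8 were called, and their median was -0.13. *CDKN2A*, the gene of p16, was at 3.54 to 14.8 CPM in RIS and 15.1 to 26.9 CPM with the hairpin, a log2 fold change of 1.01 (adjusted p = 0.0302 in edgeR) as labelled and 0.83 (adjusted p = 0.0674 in edgeR) without RIS replicate 2. *CDKN1A*, which encodes p21, overlapped, at 1117 to 1876 CPM and 1358 to 1743 CPM (-0.10). Of 20 p53 genes and 12 BCL2 family genes none was called as labelled or without RIS replicate 2, with medians of -0.08 and -0.12. *BCL2A1*, an anti-apoptotic member, was at 3.17 to 298 CPM in RIS and 428 to 729 CPM with the hairpin, and it was called without both libraries (1.44, adjusted p = 0.00228 in edgeR).

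Among metabolic lists, cholesterol synthesis had a single call. *SC5D*, the sterol desaturase of the last steps, rose from 38.5 to 59.4 CPM (median 47.9) to 74.1 to 96.3 CPM (median 85.1), a log2 fold change of 0.83 (SE 0.15, adjusted p = 0.00235) as labelled and 0.78 (SE 0.15, adjusted p = 0.00595) without RIS replicate 2 in edgeR, and it was called after length adjustment too. The median of the 16 genes was 0.05. *IDI1*, an isomerase earlier in the pathway, was also higher in every hairpin library (129.8 to 165 CPM against 41.7 to 115 CPM) and was called only without RIS replicate 2 and growing replicate 4. The 20 glycolysis and hypoxia genes, 17 MYC and nucleolar genes and 16 ATF4 and unfolded protein response genes had 0 calls in either fit and medians of -0.07, -0.08 and 0.06. *GAPDH* had a log2 fold change of -0.08.

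Interferon and antigen presentation genes held few calls. Of 24 interferon-stimulated genes, *IFI44* rose (2.37 to 4.56 CPM and 4.46 to 10.3 CPM, log2 fold change 1.05, SE 0.22, adjusted p = 0.00542, and 1.1 without RIS replicate 2, adjusted p = 0.00824, in edgeR), with a slight overlap and without a call after length adjustment. The list's median was -0.16. *B2M*, the light chain of MHC class I, had 1041 CPM in RIS replicate 2, 1186 to 2455 CPM in the other RIS libraries and 3542 to 6883 CPM with the hairpin. It was called as labelled (1.47, adjusted p = 0.00708 in edgeR), not without RIS replicate 2 (1.35, adjusted p = 0.0167 in edgeR), and had 0.51 in the length-adjusted fit of those libraries. With the replicate number as a block and without RIS replicate 2 it was called (1.34, adjusted p = 0.00562 in edgeR). None of 10 complement genes was called. *PVR*, the poliovirus receptor and ligand of the NK receptor DNAM-1, was called lower as labelled (137 to 179.9 CPM against 87.6 to 113 CPM, -0.63, adjusted p = 0.00616 in edgeR) and was at -0.58 without RIS replicate 2.

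Of 19 lysosome genes, *CTSK*, cathepsin K, a collagen-degrading protease, was called higher as labelled (73.9 to 162 CPM against 169 to 202 CPM, 0.82, adjusted p = 0.00551 in edgeR), and *TFEB*, a transcription factor of lysosome genes, lower (-1.16, adjusted p = 0.00899 in edgeR), neither without RIS replicate 2 (adjusted p = 0.013 and 0.0248 in edgeR). *HOXB7* was the 1 of 20 HOX and lung fibroblast factors called as labelled, where 1.77% of all genes were called higher. It was at 20.3 to 31.8 CPM in RIS and 36.4 to 57.7 CPM with the hairpin (0.80, adjusted p = 0.00788 in edgeR). Without RIS replicate 2 it had 0.76 and was not called. None of 18 nuclear lamina and heterochromatin genes was called in either fit, with medians of -0.24 and -0.09. *CBX3*, which encodes the heterochromatin protein HP1 gamma, was higher in every hairpin library (213 to 354 CPM against 84.9 to 207 CPM, 0.89, adjusted p = 0.0213 in edgeR), and was called only without RIS replicate 2 and growing replicate 4.

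The 16 Notch pathway genes tested held 0 calls as labelled or without RIS replicate 2, with medians of -0.22 and -0.13. *HEY1*, a transcriptional target of Notch, was at 1.72 CPM in RIS replicate 2, 5.67 to 8.86 CPM in the other RIS libraries and 10.8 to 14.5 CPM with the hairpin, without overlap, but its log2 fold change of 0.95 (SE 0.37, adjusted p = 0.048 in edgeR) missed the threshold, as did 0.75 (SE 0.33, adjusted p = 0.104 in edgeR) without RIS replicate 2. *NOTCH1* overlapped (16.1 to 37.2 CPM and 11.6 to 22.2 CPM, -0.70, adjusted p = 0.0274 in edgeR). *NOTCH3*, a receptor of mural cells, was lower in every hairpin library (7.28 to 11.9 CPM against 15.6 to 87.9 CPM), with -1.61 as labelled (adjusted p = 0.0135 in edgeR) and -0.91 without RIS replicate 2, and it was called lower once growing replicate 4 was also left out (-0.91, adjusted p = 0.00162 in edgeR). After length adjustment of that last fit, 0 of the 16 genes were called lower and 1 higher. The lowest value among them was then -0.35, so that *NOTCH3* lost its call. The list's median was 0.08 in the length-adjusted fit without RIS replicate 2. *HES1*, another Notch target, the ligand gene *JAG1*, the DNA-binding partner *RBPJ* and the coactivator *MAML1* had log2 fold changes of 0.32, 0.12, -0.02 and -0.68, none of them called. *HEYL* was too low to be tested.

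Cells without 4OHT showed which of these differences also accompanied the hairpin outside senescence. There, 36 genes were called between shHMGA1 and growing cells (0.270%), and 348 without RIS replicate 2 and growing replicate 4 (2.59%). The libraries are separate from those with 4OHT. Of the 122 genes that rose or fell in senescent cells, 121 had the same sign without 4OHT (99.2%), where 71.1% of all tested genes did, and 16 were called there. The exception, *ZNF521*, a zinc finger protein, had 0.65 with 4OHT and a value near 0 without it (24.6 to 35.0 CPM in RIS, 35.6 to 54.0 CPM in RIS+shHMGA1, 25.1 to 36.2 CPM in growing and 24.8 to 34.3 CPM in shHMGA1 cells). The median absolute log2 fold change of the 122 was 1.08 with 4OHT, by whose calls they had been chosen, and 0.584 without it. These signs and sizes are from fits without length adjustment. The deviation of short minus long genes was -0.56 to 0.111 in shHMGA1 libraries. In growing libraries it was -1.46 to -0.295 outside growing replicate 4, which had 1.07. How far shared signs follow this trend with length was not tested.

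*HMGA1* was at 639 to 861 CPM in growing cells and 54.4 to 143 CPM in shHMGA1 cells, a log2 fold change of -2.76 beside -2.05 with 4OHT. *BGN* had -1.98 (adjusted p = 1.92e-05 in edgeR) beside -1.40, *NPTXR* -1.36 beside -1.39, and *LTBP2* -1.08 (adjusted p = 0.00354 in edgeR) beside -0.80. *EVI2A* had 1.76 without 4OHT (adjusted p = 0.0205 in edgeR, not called), and *DCN* 0.94 (adjusted p = 0.0772 in edgeR, not called). *CASP1* was called in growing cells (1.46, adjusted p = 0.0061 in edgeR). Other genes had smaller values there. *CCL2* was at 8.65 to 32.0 CPM in growing and 20.6 to 39.2 CPM in shHMGA1 cells (1.02, adjusted p = 0.2 in edgeR), *AKR1C1* had 1.03, and *NMB* 0.07. These values include growing replicate 4 as labelled. Without it and RIS replicate 2, *EVI2A*, *CCL2* and *AKR1C1* were called in cells without 4OHT (log2 fold changes of 2.07, 1.39 and 1.599, adjusted p = 0.000497, 0.00405 and 0.00296 in edgeR), and *DCN* and *NMB*, at 0.84 and 0.30, were not.

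The difference between the hairpin's effects with and without 4OHT, tested as an interaction, was called for 0 of 13356 genes (0%) by edgeR as labelled, although 1371 genes had an unadjusted p below 0.05. DESeq2 called 3 and limma voom with sample quality weights 7. For *CCL2* the interaction was 1.65 (SE 0.49, adjusted p = 0.426 in edgeR), for *NMB* 1.28 (SE 0.31) and for *CXCL8* 2.26 (SE 1.00), all at the same adjusted p. Without RIS replicate 2 and growing replicate 4 these interactions were 1.12, 0.95 and 0.27, and none was called. For the genes above, a larger effect in senescent cells was therefore not shown. Without RIS replicate 2 and growing replicate 4, edgeR called 1 gene, *RGS4*, a regulator of G protein signalling that was chosen after its values were seen. It was at 14.9 to 22.6 CPM in RIS and 24.2 to 31.0 CPM in RIS+shHMGA1, and at 14.7 to 33.6 CPM in growing and 10.7 to 18.0 CPM in shHMGA1 cells, with an interaction of 1.5 on the log2 scale (adjusted p = 0.000149 in edgeR).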

How the data were processed

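RNA-seq of IMR90 ER:HRAS(G12V) cells was analysed in 24 libraries, 6 in each of 4 groups named in the sample labels: growing, shHMGA1, RIS and RIS+shHMGA1. The authors removed adapters with cutadapt 1.10.0 and aligned reads with STAR 2.5.0b to hg19, versions and build per the submitters' processing notes, kept reads with a mapping quality of at least 20 and summed them over genes in Rsubread. Each deposited value is a raw count of reads for an Entrez identifier, a whole number that had not been normalised. The counting's annotation and strand setting are not given in the sources used here, so that reads of overlapping genes may be shared. Reads that match near-identical genes equally may have been lost to the mapping quality limit. Symbols and GRCh37 coordinates came from the reference tables by identifier or symbol, and 23696 of 25702 identifiers had a symbol.

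Total counts ran from 8698070 to 23103424 a library. Counts were filtered with filterByExpr (13356 genes left), scaled by TMM and fitted with the quasi-likelihood test of edgeR 4.0.16 (R 4.3.3, limma 3.58.1) over all 24 libraries. Genes were called at a Benjamini-Hochberg adjusted p below 0.01 and an absolute log2 fold change above 0.58. CPM is on TMM library sizes, with a prior count of 2 for log2 CPM. Single *HMGA1* and *HMGA2* differences had exact permutation tests. Transcript length and GC content, used in a fit with natural spline offsets (4 degrees of freedom) per library, came from canonical transcripts, which 94.61% of tested genes and 98.89% of list members had.

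The comparison and the 47 gene lists were chosen with earlier results of these data known, so lists are described by counts and medians without a test. Named genes were *HMGA1*, *HMGA2* and the genes of the study's text, 12 genes a direction with the largest changes, taken from those called both as labelled and without RIS replicate 2 with a mean log2 CPM of at least 2, and up to 6 called members per list, or its most abundant ones where fewer than 3 were called. For lists a member counted as called if it passed as labelled, without RIS replicate 2, or without growing replicate 4 too. Genes outside this rule are marked as chosen after their values were seen.

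Alternatives were fits without single libraries or replicate numbers, libraries with 4OHT only, the replicate number as a block, RLE scaling, other count filters (none, or 1 CPM in 6 samples), glmTreat, an adjusted p below 0.05, DESeq2 1.42.0 and limma voom with sample quality weights. The fits within replicate numbers and those with length and GC offsets were chosen after seeing the data. On counts simulated from these libraries with 200 changed genes among 13278, the script recovered 64% of changes of 1 and 97% of changes of 2 on the log2 scale, with 0 false calls. That simulation held no library that departs from its group. Within RIS and RIS+shHMGA1 no 2 libraries differed by as little as sampling noise, so none was dropped as a copy. Chi-squared per gene was 3.79 to 4.44 among RIS replicates 1, 3 and 4 and 39.6 to 96 from these to replicates 5 and 6. In RIS+shHMGA1 it was 2.89 to 15.4 among replicates 1 to 4 and 31.4 to 66.2 from these to replicates 5 and 6. Whether such sets share an infection or batch is not given, so their libraries may not be independent. Fits within replicate numbers use the spread inside a set. The hairpin's target sequence and the other assays of the study were not analysed here. A single gene named by the rule is not reported here.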

Additional observations from a re-analysis of the deposited data

Results flagged for a closer look

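In a group of 6 libraries, a highest or lowest value was noted where its gap to the next value, as a share of the group's range, was above Dixon's 95% critical value. The values were log2 CPM for genes and unlogged counts for the total count. Chance gives such a gap in about 1 in 20 groups, or 3.7 of the 74 tests made, and 12 were found. RIS replicate 2 gave 6 of them. It was the lowest RIS library in *CCL2* (0.650), *IL1A* (0.901), *CEBPB* (0.715) and *HEY1* (0.721), and the highest in *HRAS* (0.670) and *ACTB* (0.754). RIS replicate 3 stood out for its total count, the largest of its group (0.684), and for low *SHROOM2* (0.759), and RIS replicate 5 for *C1orf54* (0.855). Among RIS+shHMGA1 libraries, replicate 3 stood out for *MAP3K6* (0.737), replicate 5 for *MAML1* (0.815) and replicate 6 for *ACTB* (0.661).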

How the results depend on the processing

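*HMGA1* was lower and called under every alternative but glmTreat, where its log2 fold change of -2.05 had an adjusted p of 0.0106. Elsewhere it ran from -1.67 to -3.44. *HMGA2* ran from -0.16 to -0.37 and was never called. The count of genes called between RIS+shHMGA1 and RIS, 341 as labelled, depended strongly on the libraries. It was 141 without RIS replicate 2 and 1677 without that library and growing replicate 4, and leaving out single libraries of the comparison gave 62 (without RIS replicate 5) to 492 (without RIS+shHMGA1 replicate 5). Further, it was 214 and 140 without RIS replicates 1 and 6, and 105, 72, 64 and 73 without RIS+shHMGA1 replicates 1, 2, 3 and 4. Leaving out numbers 5 and 6 of all groups, with RIS replicate 2 and growing replicate 4 kept, gave 15. The libraries with 4OHT and without RIS replicate 2 gave 1253, with 1664 in those numbered up to 4 and 1222 in those numbered 5 and 6. By test and filter it was 5 with glmTreat, 189 without a filter on low counts, 2898 at an adjusted p below 0.05, 1533 with DESeq2 and 1856 with limma voom and sample quality weights. With length and GC offsets it was 206, then 122 without RIS replicate 2 and 620 without growing replicate 4 as well. RLE scaling, a filter of 1 CPM and the libraries with 4OHT alone gave 326, 339 and 327. The split was 236 higher and 105 lower as labelled, 244 and 82 with RLE, and 110 and 96 with the offsets.

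Same-numbered RIS and RIS+shHMGA1 libraries deviated from their group means with correlations of 0.293, -0.202, 0.374, 0.307, 0.530 and 0.125, which is not above 0.1 in every pair. With the other 5 RIS libraries alone the 5 correlations were 0.269 to 0.637, all above 0.1, and not every library correlated best with its own number. The labels do not say what the numbers mark. With the replicate number as a block, 1637 genes were called, or 531 without RIS replicate 2. In that last fit *HOXB7*, *PVR*, *IL1RAP*, *MRTFB*, *H1-2*, *THBS2*, *SFRP1*, *ALDOC* and *HMGN2* were called, as were *B2M*, *TNFAIP6*, *GAS5* and 3 complex I genes, none of which passed there without the block. The interaction of hairpin and 4OHT, 0 genes as labelled, was also 0 in every fit without a single library of the 12 and with the block, 1 without RIS replicate 2 and growing replicate 4 (with or without the offsets), 2 at an adjusted p below 0.05, 3 with DESeq2 and 7 with limma voom. For the named genes, values called as labelled stayed called in 881 pairs of gene and setting and lost the call in 313, and no called value changed sign. The causes of these differences were not tested. At these depths genes near 1 CPM rest on about 10 reads a library, so that their values carry more counting error than those of the genes named at a mean log2 CPM of 2 or more.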

Other observations

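Among the 40 genes called as labelled and without RIS replicate 2, each with and without length adjustment, several lay outside the gene lists and below the level at which genes were named, and they are given here after their values were seen. *GPR65*, a proton-sensing receptor of leukocytes, was at 0 to 0.544 CPM in RIS and 0.877 to 2.26 CPM in RIS+shHMGA1, a log2 fold change of 2.60 (SE 0.51, adjusted p = 0.0045 in edgeR). *GABRA4*, a subunit of the GABA-A receptor, was at 0.169 to 0.654 CPM and 1.4 to 2.69 CPM (2.5, SE 0.39, adjusted p = 0.00106 in edgeR), and *CLIC2*, an intracellular chloride channel protein, at 0.508 to 1.42 CPM and 2.54 to 4.43 CPM (1.91, SE 0.35, adjusted p = 0.00298 in edgeR). In all 3 the groups did not overlap.

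Better expressed genes of this set had changes of a smaller size. *HTATIP2*, an oxidoreductase also known as TIP30, was at 23.8 to 40.7 CPM in RIS and 63.1 to 89.6 CPM in RIS+shHMGA1 (1.18, SE 0.18, adjusted p = 0.000774 in edgeR), *CYB5A*, cytochrome b5, at 17.9 to 34.0 CPM and 41.5 to 81.0 CPM (1.04, SE 0.20, adjusted p = 0.00364 in edgeR), and the DNA repair methyltransferase gene *MGMT* at 12.2 to 15.9 CPM and 19.4 to 31.8 CPM (0.80, SE 0.16, adjusted p = 0.00414 in edgeR). On the lower side, *PEG10*, an imprinted gene of retrotransposon origin, was at 51.2 to 81.2 CPM and 32.0 to 43.4 CPM (-0.82, SE 0.11, adjusted p = 0.000266 in edgeR), and *NRK*, a Nik-related kinase, at 23.1 to 35.3 CPM and 10.7 to 18.5 CPM (-0.92, SE 0.18, adjusted p = 0.00374 in edgeR). The groups did not overlap in any of these 5 genes.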
